A study of Homo sapiens with 34 samples.

Results

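MDAPCa2a cells, a human prostate cancer line derived from a bone metastasis, were compared on amorphous calcium phosphate (ACP) and on plastic in stripped-serum medium, in which charcoal and dextran had removed most steroid hormones. The 4 libraries, 2 from ACP and 2 from plastic, were chosen by their labelled line, surface and medium from 34 in the series. The series profiled poly(A)-selected RNA of 4 prostate lines on these surfaces. All 4 libraries are labelled day 4 and no androgen was added. The plastic carried FNC, a protein coating mix, and the ACP surface did not, so the mineral and the loss of the coating cannot be told apart. The protocol describes the plastic and ACP cultures as separate experiments started from separate flasks, and that origin cannot be told apart from the surface either. The labels do not say that replicates were separate cultures. So p-values measure only the spread between replicate libraries, over all groups in the fit used, and that spread may be technical. The other MDAPCa2a groups were plastic in control medium and ACP in stripped serum with androgen at a labelled 100 mM, with 2 libraries each. The titles name that androgen DHT and the treatment labels testosterone.

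ACP is a mineral coating that resembles an early form of bone mineral. Cells hold on to a surface through integrins, which bind matrix proteins and recruit focal adhesion proteins, and through heparan sulfate chains on their surface. HPSE encodes heparanase, the enzyme that cuts these chains, and HPSE2 encodes heparanase 2, which binds heparan sulfate without cutting it and can inhibit heparanase. Prostate luminal cells respond to steroids through the androgen receptor, and they make their own cholesterol and fatty acids under the control of sterol-sensing transcription factors.

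The plastic libraries held 31.2 M and 24.6 M reads and the ACP libraries 15.4 M and 16.4 M, so depth differed with the surface. Of 26336 genes, 13626 had enough reads to be tested. ACP replicate 1 stood apart from the other MDAPCa2a libraries. On the first principal component (44.0% of the variance of the 8 libraries) it lay at 54.0 and the others between -35.6 and 14.5. The SD of the log2 difference between replicates, over 12365 genes above 1 CPM (reads of a gene per M reads of its library, after TMM scaling), was 0.638 on ACP and 0.413 on plastic. Replicates correlated across genes at Pearson's r of 0.965 on ACP and 0.984 on plastic. Genes are not independent replicates. The median log2 fold change of ACP against plastic over all tested genes was 0.03.

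The cell type of the libraries was checked with markers, which cannot tell 1 luminal prostate line from another. All 12 luminal prostate markers had reads in all 4 libraries, and their summed level was 16055 and 18292 CPM on plastic and 23177 and 16317 CPM on ACP. Basal markers summed to 50.0 and 41.4 CPM on plastic and 40.1 and 38.4 CPM on ACP. Most of this was KRT14, at 26.3 and 32.5 CPM on plastic and 39.0 and 24.3 CPM on ACP. The basal keratin KRT5 had 301 and 58 reads on plastic and 0 and 116 on ACP, and TP63 had 5 and 2 reads on plastic and 0 and 6 on ACP. KRT17, COL17A1, DSG3 and KRT6A also had 0 reads in ACP replicate 1. Fibroblast markers summed to at most 2.58 CPM and endothelial markers to at most 3.31 CPM, with 2 of 11 and 5 of 10 of them at 0 in all 4 libraries. Of 12 liver markers, 5 were at 0, and the sums ran from 15.1 to 18.8 CPM, most of it CPS1. The leukocyte sum of 1954 to 3892 CPM was almost wholly HLA-DRA, while PTPRC, the pan-leukocyte marker CD45, had at most 1 read in each of the 4 libraries.

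Transcripts listed as carrying no poly(A) tail, a sign of RNA quality or of selection, were higher on ACP in sum. The list holds small structural RNAs and replication-dependent histone messages. The 24 listed transcripts summed to 127 and 121 CPM on plastic, to 319 and 212 CPM on ACP, and to 88.8 and 116 CPM on ACP with androgen. Among the 15 tested, log2 fold changes ran from 0.82 to 3.55 for the small RNAs. For the histone messages they were mixed, from -0.65 to 1.07. Of the 15, 5 were higher (33.3%) and 0 lower at an unadjusted p below 0.05 in edgeR, beside 8.16% and 7.04% of all genes. Without ACP replicate 1 these were 2 and 1, and without ACP replicate 2 they were 8 and 0. Their part in the differences described here was not tested.

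HPSE2 was the single gene that changed at a Benjamini-Hochberg adjusted p below 0.05 in edgeR's quasi-likelihood test, 1 of 13626 genes or 0.00734%. It fell on ACP. HPSE2 was read at 66.3 and 94.0 CPM on plastic and at 5.49 and 10.1 CPM on ACP (80.1 ± 19.6 and 7.80 ± 3.26 CPM, SD, n = 2). The groups lay far apart, and both ACP libraries were below both plastic libraries. These levels stood for 2052 and 2332 reads on plastic and 80 and 171 reads on ACP. The log2 fold change was -3.35 ± 0.32 (SE), with an adjusted p of 0.0329 in edgeR. DESeq2 gave an adjusted p of 3.94e-23, and an edgeR fit of all 34 libraries gave 0.000628. The edgeR call was lost in a fit of the 6 day 4 libraries of the line (adjusted p 0.0615), without plastic replicate 1 (0.127) and without plastic replicate 2 (0.207), while the log2 fold change stayed between -3.89 and -2.99 without any 1 library. HPSE2 still passed the threshold after the libraries were thinned to 15440141 reads.

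The other MDAPCa2a groups divided by surface in the same way. HPSE2 stood at 8.60 and 9.22 CPM on ACP with androgen and at 76.8 and 54.1 CPM on plastic in control medium. So all 4 ACP libraries lay at or below 10.1 CPM and all 4 plastic libraries at or above 54.1 CPM. HPSE2 was nearly unread in the other lines, with 0 to 10 reads per library in the 26 libraries of RWPE, LNCaP and VCaP. HPSE, the gene of active heparanase, had 21 and 2 reads on plastic and 3 and 7 reads on ACP. Its log2 fold change of -0.33 ± 0.99 says little at this depth (edgeR unadjusted p = 0.749). In RWPE, a non-tumorigenic prostate epithelial line, HPSE ran from 22.3 to 28.6 CPM. Among 29 tested genes of heparan sulfate synthesis, trimming and core proteins, the median log2 fold change was -0.15. GPC6, a glypican core protein, was the member above plastic at an unadjusted p below 0.05 in edgeR (11.7 and 9.19 CPM on plastic, 12.7 and 21.4 CPM on ACP). HPSE2 and the collagen XVIII gene COL18A1 were the members below. These shares were 3.45% above and 6.9% below, beside 8.16% and 7.04% of all genes.

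**Figure D1:**
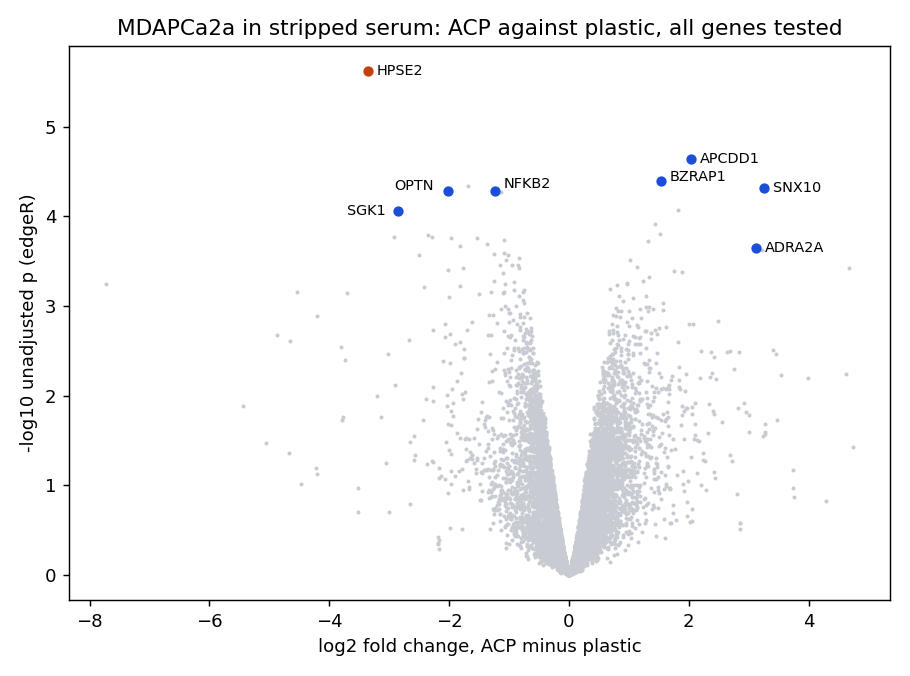
Each point is 1 of 13626 tested genes, with the log2 fold change of ACP minus plastic on the x axis and -log10 of the unadjusted edgeR p on the y axis. HPSE2, in orange, lies highest at a log2 fold change of -3.35, and the blue points are other named genes, none past the adjusted threshold.

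Below that threshold lay a broad band of genes with low unadjusted p. In edgeR 2071 genes (15.2%) had an unadjusted p below 0.05, with 1112 (8.16%) higher and 959 (7.04%) lower on ACP. DESeq2 called 213 genes (1.56%) at an adjusted p below 0.05, 96 higher (0.705%) and 117 lower (0.859%), and all 213 were among those 2071. The edgeR fit of all 34 libraries called 27 of 17323 genes (0.156%), 7 higher and 20 lower, and 24 of these were also DESeq2 calls. The ACP and plastic libraries did not overlap for 5568 genes (40.9%), with ACP higher for 2762 (20.3%) and lower for 2806 (20.6%). The number of edgeR calls turned on single libraries. It was 0 without either plastic library (815 and 2498 genes at an unadjusted p below 0.05), 22 without ACP replicate 1 and 303 without ACP replicate 2. The genes at an unadjusted p below 0.05 numbered 1559 without ACP replicate 1 and 4156 without ACP replicate 2, and counts within gene lists moved with them.

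The genes furthest above plastic on ACP included secreted, receptor and Wnt-related proteins. APCDD1, a membrane protein that inhibits Wnt signalling, was read at 47.6 and 43.1 CPM on plastic and at 181 and 189 CPM on ACP. The replicates lay close together in both groups, and ACP was higher. The log2 fold change was 2.03 ± 0.26, with an adjusted p of 0.0840 in edgeR, 1.13e-10 in DESeq2 and 0.00172 in the fit of all 34 libraries. APCDD1 was also high on plastic in control medium, at 145 and 149 CPM, so the stripped plastic libraries were the lowest of the 8. ADRA2A, the alpha-2A adrenergic receptor, was at 0.969 and 0.847 CPM on plastic and 5.97 and 9.93 CPM on ACP (log2 3.12 ± 0.53, edgeR adjusted p 0.131, DESeq2 3.76e-06). ALK, a receptor tyrosine kinase, was at 2.71 and 3.10 CPM on plastic and 9.19 and 11.3 CPM on ACP (log2 1.82 ± 0.27, edgeR adjusted p 0.109, DESeq2 2.51e-05).

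Several of the largest positive fold changes rested mainly on 1 ACP library. RELN, which encodes the secreted matrix glycoprotein reelin, was at 5.55 and 2.22 CPM on plastic and 11.9 and 71.7 CPM on ACP, the largest of the 10 by fold (log2 3.41 ± 0.85). PPFIA2, the scaffold protein liprin-alpha-2, was at 1.84 and 1.61 CPM on plastic and 5.14 and 19.6 CPM on ACP. In RELN, PPFIA2 and APOL4 (4.88 and 3.71, then 6.65 and 21.6 CPM) ACP replicate 2 was the high one. MSMB, the secreted prostate protein beta-microseminoprotein, was at 12.6 and 12.5 CPM on plastic and 83.5 and 14.1 CPM on ACP, so there replicate 1 was the high one. MAGEA10, a cancer-testis antigen gene with close paralogs, was at 4.78 and 1.53 CPM on plastic and 10.4 and 16.5 CPM on ACP, and how reads were divided among such paralogs is not known. CFAP69 was at 9.75 and 15.8 CPM on plastic and 56.9 and 29.8 CPM on ACP. The last of the 10 was RPPH1, the RNA part of ribonuclease P and one of the transcripts without poly(A), at 15.9 and 17.6 CPM on plastic and 146 and 70.4 CPM on ACP.

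After HPSE2, the genes furthest below plastic included a kinase, a heat shock protein and a steroid enzyme. SGK1, a kinase gene induced by serum and glucocorticoids, was at 9.98 and 5.89 CPM on plastic and 1.37 and 0.827 CPM on ACP. The log2 fold change was -2.86 ± 0.43, with an adjusted p of 0.109 in edgeR, 1.89e-05 in DESeq2 and 0.00548 in the fit of all 34 libraries. With androgen on ACP, SGK1 was at 0.412 and 0.153 CPM. HSPA2, a heat shock protein of the HSP70 family, was at 18.4 and 11.6 CPM on plastic and 4.18 and 3.43 CPM on ACP (log2 -1.98 ± 0.28, adjusted p 0.0840 in edgeR, 8.26e-06 in DESeq2 and 0.00548 in the fit of all 34 libraries). For SGK1, HSPA2 and EMP1 (30.3 and 42.6 CPM on plastic, 9.74 and 3.25 CPM on ACP) the stripped plastic libraries were the highest of the 8, and plastic in control medium was near the ACP levels.

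CYP11A1, the enzyme that starts steroid synthesis by cutting the cholesterol side chain, was at 19.6 and 18.7 CPM on plastic and 3.15 and 6.20 CPM on ACP (log2 -2.02 ± 0.37). On plastic in control medium CYP11A1 was at 0.0863 and 0.238 CPM, below all ACP libraries. OPTN, the autophagy receptor optineurin, was at 8.62 and 11.2 CPM on plastic and 2.26 and 2.60 CPM on ACP (log2 -2.02 ± 0.28), and in control medium on plastic at 11.4 and 12.2 CPM. DESeq2 gave CYP11A1 and OPTN adjusted p-values of 5.33e-05 and 7.74e-06, and edgeR 0.140 and 0.0840. KRT15, a basal keratin, was at 6.65 and 3.83 CPM on plastic and 0.617 and 1.83 CPM on ACP. ADGRF1, an adhesion G protein-coupled receptor, was at 72.2 and 114 CPM on plastic and 38.8 and 6.44 CPM on ACP, a wide spread between the ACP replicates. SLC6A19, an amino acid transporter, was at 9.17 and 19.4 CPM on plastic and 2.81 and 4.37 CPM on ACP (log2 -1.98 ± 0.46, adjusted p 0.193 in edgeR and 0.00328 in DESeq2).

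**Figure D2:**
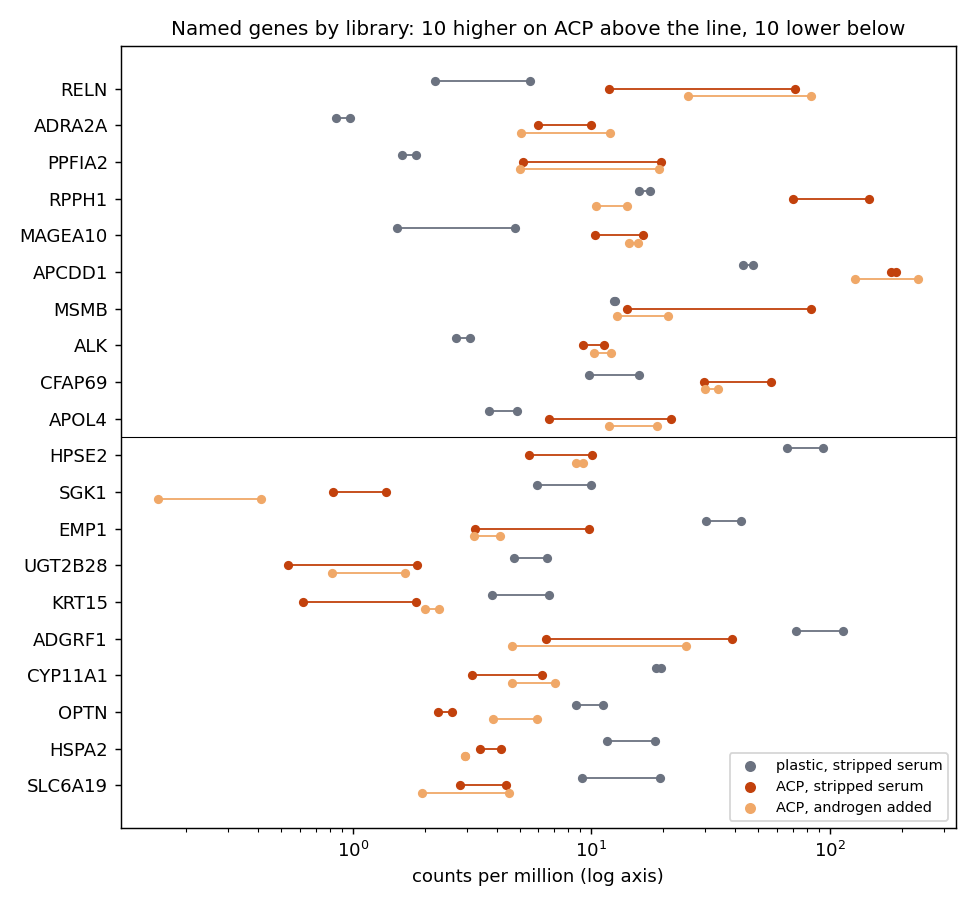
CPM on a log axis for the 10 genes furthest above plastic on ACP (above the horizontal line) and the 10 furthest below, with 1 point per library and a line joining the 2 libraries of a group. Grey marks plastic, dark orange ACP and light orange ACP with androgen; APCDD1, ALK and OPTN have replicates close together, while RELN, MSMB and ADGRF1 have ACP replicates far apart.

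Adhesion genes were examined because the surface and its coating differed. None of 13 tested integrin subunits had an unadjusted p below 0.05, and their median log2 fold change was -0.07 beside 0.03 over all genes. ITGB1, the shared beta-1 subunit, was at 249 and 301 CPM on plastic and 283 and 378 CPM on ACP. Of 22 focal adhesion genes, FERMT2 and PARVA were above plastic and VCL, PXN, ZYX, TNS3 and VASP below at an unadjusted p below 0.05 (9.09% and 22.7%, beside 8.16% and 7.04% of all genes). The counts turned on single libraries, at 4 above and 1 below without ACP replicate 1, 2 and 9 without ACP replicate 2, and 2 and 1 without plastic replicate 1. FERMT2, the integrin activator kindlin-2, was at 40.5 and 46.7 CPM on plastic and 71.7 and 59.0 CPM on ACP. TNS3, a tensin that ties integrins to actin, was at 7.59 and 7.74 CPM on plastic and 2.67 and 3.78 CPM on ACP. None of the 22 passed the adjusted threshold.

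Matrix protein genes lay mostly below plastic, with 24 of 30 negative, a median log2 fold change of -0.41, and 7 lower (23.3%, beside 7.04% of all genes) and 0 higher at an unadjusted p below 0.05. The 7 were the laminin chains LAMA5 and LAMB2, the collagen chains COL4A6, COL5A2 and COL18A1, THBS1 and FBN1. ACP replicate 1 was the lowest of the 4 libraries for 21 of the 30, and ACP replicate 2 was above plastic replicate 2 for 13. There were 5 lower and 1 higher without ACP replicate 1, and 13 and 0 without ACP replicate 2. COL5A2, a chain of fibril-forming collagen V, was at 6.20 and 7.86 CPM on plastic and 1.37 and 2.19 CPM on ACP (log2 -1.97 ± 0.32), with an adjusted p of 0.128 in edgeR, 0.000366 in DESeq2 and 0.0202 in the fit of all 34 libraries. FBN1, the microfibril protein fibrillin-1, was at 4.00 and 3.63 CPM on plastic and 0.549 and 1.24 CPM on ACP. FN1, the fibronectin gene, was at 12103 and 8956 CPM on plastic and 14610 and 12712 CPM on ACP, a log2 difference of 0.38 ± 0.21. Of 16 tested matrix protease genes, MMP13 and MMP15 were below plastic at an unadjusted p below 0.05 (12.5%, beside 7.04% of all genes). At that level 0 were above, beside 8.16% of all genes. Their median log2 fold change was 0.20, and 10 of the 16 were positive. MMP13 (collagenase 3) was at 0.258 and 0.766 CPM on plastic and 0.0686 and 0 CPM on ACP.

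Of 34 calcium and phosphate genes, 4 were higher and 4 lower at an unadjusted p below 0.05 (11.8% each way, beside 8.16% and 7.04% of all genes), with a median log2 fold change of 0.11. Without ACP replicate 1 the counts were 5 higher and 2 lower, without ACP replicate 2 they were 4 and 8, and without plastic replicate 1 they were 2 and 2. VDR, the vitamin D receptor, was at 128 and 150 CPM on plastic and 55.6 and 75.9 CPM on ACP (log2 -1.08 ± 0.19, adjusted p 0.131 in edgeR and 0.000362 in DESeq2). CACNA1D, a voltage-gated calcium channel subunit, was at 3.65 and 4.64 CPM on plastic and 13.03 and 8.45 CPM on ACP (log2 1.37 ± 0.32, adjusted p 0.193 in edgeR and 0.0134 in DESeq2). SLC8A1, a sodium-calcium exchanger, and ATP2A1, a calcium pump, were named by fold but had at most 26 reads in each of the 4 libraries. Of 30 bone matrix and turnover genes, 10 had enough reads to be tested, and none of the 10 had an unadjusted p below 0.05. The bone genes summed to 17.5 and 18.5 CPM on plastic and 18.5 and 25.1 CPM on ACP.

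**Figure D3:**
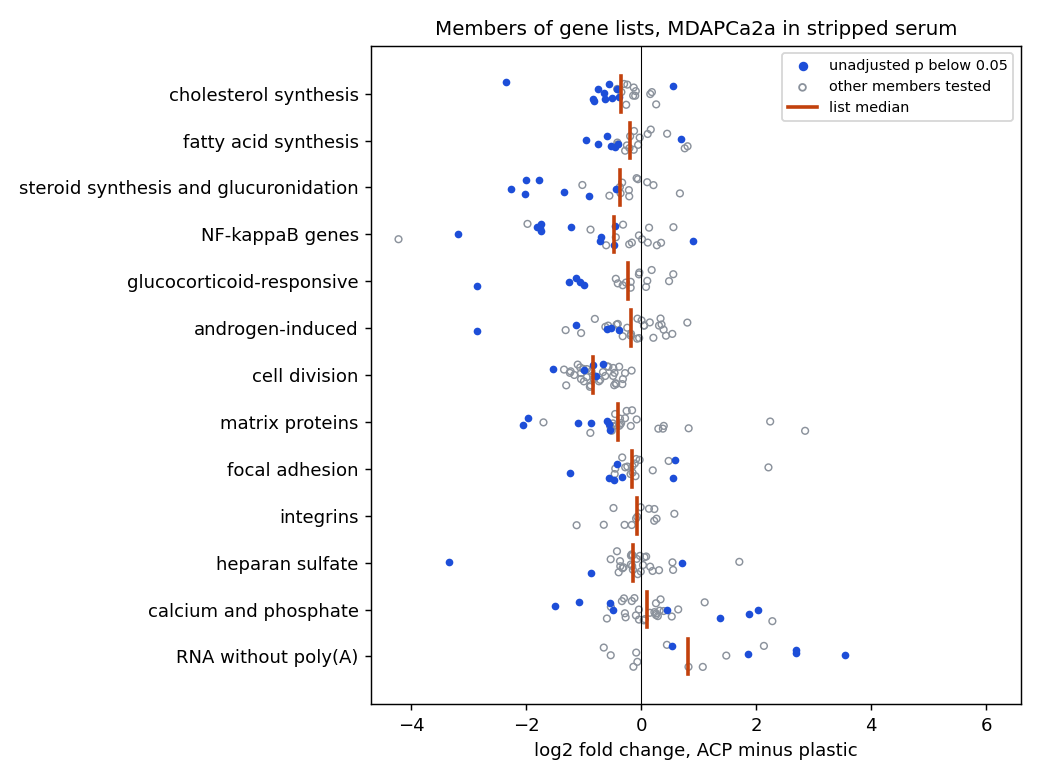
Log2 fold change of ACP minus plastic for each tested member of the gene lists, with members at an unadjusted p below 0.05 as filled blue points, other members as open points and the list median as an orange bar. The medians of cell division (-0.83), NF-kappaB genes (-0.47) and matrix proteins (-0.41) lie left of 0, and that of the transcripts without poly(A) (0.82) lies right.

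Cholesterol synthesis genes lay below plastic in 19 of 23 cases. At an unadjusted p below 0.05, 10 of the 23 (43.5%) were lower, beside 7.04% of all genes, and 1 was higher. DESeq2 called 5 of the 23 lower at its adjusted threshold, beside 0.859% of all genes, and edgeR called none. The median log2 fold change was -0.35, and the summed level was 5524 and 5714 CPM on plastic and 4511 and 4255 CPM on ACP. The lower members included MVK, MVD, FDPS, LSS, EBP and DHCR7 along the synthesis pathway and the sterol-sensing regulator INSIG1. EBP, a sterol isomerase, was at 116 and 106 CPM on plastic and 61.9 and 62.3 CPM on ACP (log2 -0.84 ± 0.15, adjusted p 0.136 in edgeR and 0.0018 in DESeq2). DHCR7, which makes cholesterol in the last step of one branch, was at 258 and 228 CPM on plastic and 128 and 159 CPM on ACP (log2 -0.76 ± 0.17). GGPS1, which diverts the pathway to geranylgeranyl groups, was the member above plastic (53.0 and 76.1 CPM, then 111 and 77.8 CPM).

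Fatty acid synthesis genes had 6 of 22 lower (27.3%, beside 7.04% of all genes) and 1 higher at an unadjusted p below 0.05 and a median log2 fold change of -0.20. Without plastic replicate 2 there were 3 lower and 2 higher, and without ACP replicate 1 there were 4 and 1. FASN, the fatty acid synthase, was at 6733 and 4760 CPM on plastic and 3084 and 2778 CPM on ACP. Both ACP libraries were below both plastic libraries (log2 -0.97 ± 0.23, adjusted p 0.193 in edgeR and 0.00345 in DESeq2). DGAT2, an enzyme of triglyceride synthesis, was above plastic, at 5.81 and 8.63 CPM on plastic and 10.2 and 13.2 CPM on ACP.

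Steroid synthesis and glucuronidation genes, listed after values of some members had been seen, had 7 of 19 lower (36.8%, beside 7.04% of all genes) and 0 higher at an unadjusted p below 0.05. These were CYP11A1, FDXR, HSD17B6, HSD11B2, UGT2B4, UGT2B11 and UGT2B28. The list median was -0.37, and the libraries did not overlap for 12 of the 19, all lower on ACP, as for 20.6% of all genes. Without plastic replicate 1 the count of 7 was 4, and without ACP replicate 1 there were 5 lower and 2 higher. UGT2B28, a glucuronosyltransferase that tags steroids for removal, was at 4.75 and 6.53 CPM on plastic and 1.85 and 0.532 CPM on ACP. UGT2B11 was at 9.30 and 15.4 CPM on plastic and 5.35 and 1.89 CPM on ACP. The UGT2B genes are near-identical, so how their reads were divided is uncertain.

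Androgen receptor targets were examined next. None of 31 tested androgen-induced genes was higher and 5 were lower (16.1%) at an unadjusted p below 0.05, beside 8.16% higher and 7.04% lower over all genes, with a median log2 fold change of -0.18. The counts turned on the ACP libraries, at 1 higher and 10 lower without replicate 1 and 6 higher and 3 lower without replicate 2. KLK3, which encodes prostate-specific antigen, was at 7292 and 8655 CPM on plastic and 12615 and 7128 CPM on ACP (log2 0.31 ± 0.26, edgeR unadjusted p = 0.273). ACP replicate 1 was the highest and ACP replicate 2 the lowest of the 4. With androgen on ACP, KLK3 was at 6957 and 7348 CPM. The whole list then summed to 16146 and 16918 CPM, beside 24910 and 16479 CPM on ACP without androgen. KLK2, a related kallikrein protease gene, was at 1241 and 1323 CPM on plastic and 1550 and 1104 CPM on ACP (log2 0.05 ± 0.21). TMPRSS2, a luminal serine protease gene, was at 960 and 1260.5 CPM on plastic and 1404 and 890 CPM on ACP (log2 0.05 ± 0.24). In KLK3, KLK2 and TMPRSS2 the ACP replicates enclosed both plastic replicates, and these values leave both directions possible.

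FKBP5, a chaperone gene induced by androgens and glucocorticoids, was at 774 and 851 CPM on plastic and 410 and 325 CPM on ACP, with no overlap (log2 -1.14 ± 0.21, adjusted p 0.136 in edgeR and 5.33e-05 in DESeq2). SGK1, ACSL3 and AFF3 were also among the 5 lower genes of the androgen list. A list of 18 tested glucocorticoid-responsive genes, written after SGK1 and FKBP5 had been seen, had 5 lower (27.8%, beside 7.04% of all genes) and 0 higher at an unadjusted p below 0.05, with a median of -0.23. Without ACP replicate 1 these were 11 and 2. PER1, a clock gene in that list, was at 62.3 and 42.7 CPM on plastic and 33.8 and 18.6 CPM on ACP (log2 -1.01 ± 0.29). TSC22D3, another glucocorticoid target, overlapped between the groups at 165 and 114 CPM on plastic and 117 and 93.3 CPM on ACP.

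Genes of the NF-kappaB pathway and its targets were below plastic in 19 of 26 cases, with 10 lower (38.5%) and 1 higher (3.85%) at an unadjusted p below 0.05, beside 7.04% and 8.16% of all genes, and a median log2 fold change of -0.47. This list too was written after values of some members had been seen. NF-kappaB is a family of transcription factors held inactive by inhibitor proteins until a signal frees them, and NFKB2 with RELB forms the dimer of its alternative branch. NF-kappaB binds DNA at the kappaB motif, which was searched on both strands in the 250 bases before the RefSeq start of each gene (GRCh38.p14). It was present in 2614 of 27304 promoters (9.57%), in 9 of 23 listed genes with a promoter entry (39.1%), in 3 of the 8 that were lower at an unadjusted p below 0.05 (37.5%) and in 6 of the other 15 (40.0%). The 3 matching promoters of those 8 genes are given on the plus strand, with the motif in capitals, to place the matches beside the expression values. They lie at chr6:137867179-137867238, chr11:102317324-102317383 and chr16:3065280-3065339. A match describes letters in a window and says nothing of binding.
TNFAIP3: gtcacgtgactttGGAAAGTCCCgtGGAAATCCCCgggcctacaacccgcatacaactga
BIRC3: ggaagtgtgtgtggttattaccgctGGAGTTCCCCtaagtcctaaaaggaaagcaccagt
IL32: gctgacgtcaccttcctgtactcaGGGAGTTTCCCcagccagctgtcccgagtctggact

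NFKB2 was at 45.4 and 40.0 CPM on plastic and 17.8 and 18.6 CPM on ACP, with replicates close together in both groups (log2 -1.23 ± 0.17, adjusted p 0.0840 in edgeR and 1.06e-05 in DESeq2). RELB was at 12.5 and 11.8 CPM on plastic and 3.91 and 3.01 CPM on ACP (log2 -1.81 ± 0.31, adjusted p 0.131 in edgeR and 4.34e-05 in DESeq2). BIRC3, an inhibitor of apoptosis, was at 84.7 and 99.0 CPM on plastic and 30.5 and 23.9 CPM on ACP. TNFAIP3, the A20 protein that shuts the pathway off, was at 9.65 and 7.86 CPM on plastic and 1.85 and 3.31 CPM on ACP. IL32, a cytokine gene, was at 4.52 and 3.06 CPM on plastic and 0.274 and 0.532 CPM on ACP, which is 4 and 9 reads. In NFKB2, RELB, BIRC3 and TNFAIP3, plastic in control medium was as high as or higher than stripped plastic.

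NFKBIZ, an atypical inhibitor protein of the same pathway, went the other way, at 20.6 and 24.3 CPM on plastic and 53.8 and 30.1 CPM on ACP (log2 0.90 ± 0.31). NFKBIA, the classical inhibitor, was at 123 and 108 CPM on plastic and 99.0 and 71.1 CPM on ACP (log2 -0.44 ± 0.20, edgeR unadjusted p = 0.0572). Without ACP replicate 1, 7 listed genes were lower at an unadjusted p below 0.05, and without plastic replicate 1, 6 were. Both counts are beside 10 with all libraries.

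Cell division genes had a median of -0.83, and 40 of 40 were negative. The 8 tested basal markers had a similar median of -0.84, with ACP replicate 1 again the lowest library for 7 of the 8. ACP replicate 1 was the lowest of the 4 libraries for 39 of the 40. ACP replicate 2 was above plastic replicate 2 for 32 and above plastic replicate 1 for 2. The summed level was 1850 and 1055 CPM on plastic and 499 and 1288 CPM on ACP, so the groups overlapped. MKI67, the proliferation marker Ki-67, was at 142 and 65.6 CPM on plastic and 14.1 and 102 CPM on ACP. Without ACP replicate 1, 0 cell division genes had an unadjusted p below 0.05, and without ACP replicate 2, 38 had. With all libraries 5 (12.5%, beside 7.04% of all genes) had, all lower on ACP, and AURKA, PLK1, MCM2, MCM3 and MCM5 were these 5. In bulk RNA fewer dividing cells and less RNA per cell cannot be told apart.

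**Figure D4:**
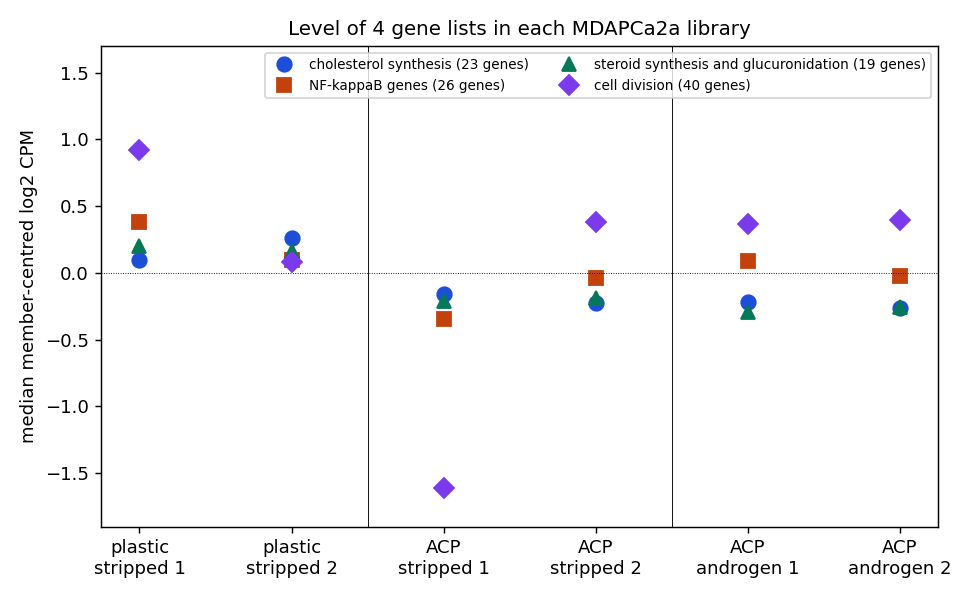
Median over members of log2 CPM, centred for each member, for 4 gene lists in each of 6 MDAPCa2a libraries. Cholesterol synthesis, NF-kappaB and steroid genes are lower in both ACP stripped libraries than in both plastic stripped libraries, while cell division genes are low in ACP stripped 1 alone among the ACP libraries.

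Other lists on stress and signalling were set beside 8.16% of all genes higher and 7.04% lower. At an unadjusted p below 0.05 there were 2 of 30 ATF4 and endoplasmic reticulum stress genes higher and 2 lower, 2 of 32 hypoxia and glycolysis genes higher and 3 lower, and 3 of 20 YAP targets in each direction. The stress list turned on the ACP libraries, with 5 higher and 0 lower without replicate 1 and 1 higher and 19 lower without replicate 2. The hypoxia and glycolysis counts were 2 higher and 1 lower without ACP replicate 1, 4 and 6 without ACP replicate 2, and 3 and 0 without plastic replicate 1. ENO2, a glycolytic enzyme and neuroendocrine marker, was at 3.03 and 1.53 CPM on plastic and 4.94 and 7.86 CPM on ACP (log2 1.48 ± 0.37, adjusted p 0.207 in edgeR and 0.0313 in DESeq2). Of 24 immediate early genes, KLF4 was higher and FOSL2, JUNB, JUND, IER2 and ETV4 were lower (20.8%), with 2 lower without ACP replicate 1 and 8 without ACP replicate 2. IER2 was at 52.4 and 119 CPM on plastic and 39.1 and 51.4 CPM on ACP. Of 28 interferon-stimulated genes 2 were higher and 5 lower (17.9%), among the latter the immunoproteasome subunit PSMB9 (3.03 and 2.98 CPM on plastic, 0.892 and 1.30 CPM on ACP).

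Of 26 Wnt pathway genes, also listed later, APCDD1 and FZD7 were higher and FZD2 and WNT7B lower at an unadjusted p below 0.05 (7.69% each way, beside 8.16% and 7.04% of all genes), with a median log2 fold change of -0.08. There were 4 higher and 0 lower without ACP replicate 1, and 1 and 8 without ACP replicate 2. AXIN2, a general Wnt target, was at 6.49 and 6.89 CPM on plastic and 8.02 and 9.10 CPM on ACP (log2 0.36 ± 0.21, edgeR unadjusted p = 0.117). FZD2, a frizzled receptor, was at 6.01 and 7.10 CPM on plastic and 2.13 and 4.31 CPM on ACP. Of 15 epithelial-mesenchymal genes, 1 was higher and 1 lower at an unadjusted p below 0.05. That is 6.67% each way, beside 8.16% and 7.04% of all genes. ACTA2 was the higher one, at 0.969 and 1.33 CPM on plastic and 2.33 and 2.48 CPM on ACP. TWIST1 was the lower one, at 23.6 and 31.4 CPM on plastic and 15.1 and 18.3 CPM on ACP. Of 12 luminal markers, 1 was higher (8.33%) and 0 lower at an unadjusted p below 0.05, near the 8.16% of all genes higher. Their median log2 fold change was 0.01. The higher marker was FOLH1, which encodes prostate-specific membrane antigen (1546 and 1865 CPM on plastic, 2665 and 2680 CPM on ACP). Its log2 fold change was 0.65 ± 0.19, with an adjusted p of 0.235 in edgeR and 0.0441 in DESeq2.

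The surface effect was then set against that in LNCaP, a prostate cancer line from a lymph node metastasis, which also had 2 libraries on each surface in stripped serum. LNCaP plastic is not described as coated, so a difference between the lines cannot be told apart from a difference in coating. The difference of the effects was tested in the edgeR fit of all 34 libraries, and it passed an adjusted p of 0.05 for 62 of 17323 genes (0.358%). For 55 (0.317%) the effect in MDAPCa2a was the lower one and for 7 (0.0404%) the higher. Of the 62, 51 passed the threshold in LNCaP and 5 in MDAPCa2a, and 38 had opposite signs in the lines. Some of these signs rest on MDAPCa2a values near 0, such as -0.008 for DSCAM-AS1 and -0.014 for HGD. Of the genes with opposite signs, LMO7 and ADRA2A passed the threshold in both lines. The count ran from 26 to 73 without any 1 library, the lowest without LNCaP plastic replicate 1, and it was 36, 37 and 34 without LNCaP plastic replicate 2, ACP replicate 1 and ACP replicate 2.

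ADRA2A was the gene with the largest positive difference, 5.18 ± 0.84 on the log2 scale (edgeR adjusted p 0.00234). It was higher on ACP in MDAPCa2a (log2 3.04 ± 0.63) and lower in LNCaP (log2 -2.13 ± 0.55), where it was at 34.6 and 27.1 CPM on plastic and 3.65 and 10.4 CPM on ACP. PPFIA2 (3.26 ± 0.72, adjusted p 0.0413) and ARHGEF40 (3.02 ± 0.68, adjusted p 0.0488) followed, although ARHGEF40 had 1 and 4 reads on plastic and 5 and 11 reads on ACP in MDAPCa2a. Without 1 library the adjusted p of PPFIA2 ran from 0.00327 to 0.279, past 0.05 only without MDAPCa2a ACP replicate 1. That of ARHGEF40 ran from 0.0338 to 0.337, past 0.05 only without MDAPCa2a plastic replicate 2 or ACP replicate 1. In a fit of the 8 compared libraries neither passed (adjusted p 0.0602 for PPFIA2 and 0.119 for ARHGEF40), and with a replicate block ARHGEF40 did not (0.0882). The ADRA2A difference passed the threshold without each library. The largest negative differences came from LNCaP. DSCAM-AS1, an antisense RNA, was at 0.282 and 0.459 CPM on plastic and 144 and 107 CPM on ACP in LNCaP, with 2 to 10 reads in each MDAPCa2a library. GAPLINC, a long non-coding RNA, had 2 and 0 reads on plastic and 182 and 152 on ACP in LNCaP, and 5 to 12 reads per MDAPCa2a library. The DSCAM-AS1 call was lost without MDAPCa2a plastic replicate 2 (adjusted p 0.133). Since no source says that strand was used in counting, reads of DSCAM-AS1 and of a gene on the opposite strand may be mixed.

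Among genes of the lists, chosen here after their values were seen, several differed between the lines. SGK1 had a difference of -3.81 ± 0.62 (edgeR adjusted p 0.00234), with 4.41 and 4.44 CPM on plastic and 8.70 and 7.22 CPM on ACP in LNCaP. RELB differed by -4.01 ± 0.76 (adjusted p 0.00973), at 1.67 and 1.27 CPM on plastic and 7.21 and 5.71 CPM on ACP in LNCaP, and CYP11A1 by -3.87 ± 0.81 (adjusted p 0.0271). Both were below plastic on ACP in MDAPCa2a and above it in LNCaP by fold. In LNCaP CYP11A1 was at 1.39 and 0.357 CPM on plastic and 4.27 and 2.10 CPM on ACP. Its effect passed the threshold in neither line (edgeR adjusted p 0.106 in MDAPCa2a and 0.126 in LNCaP). That of RELB passed in LNCaP (0.0414) and not in MDAPCa2a (0.124). NFKBIZ was above plastic in both lines but by more in LNCaP (log2 4.55 ± 0.32 against 0.80 ± 0.26, difference adjusted p 1.21e-05). Of the cholesterol genes, INSIG1 (-1.68 ± 0.27) and DHCR7 (-1.26 ± 0.26) were among those that differed. The median log2 fold change of the 23 cholesterol genes was -0.44 in MDAPCa2a and 0.41 in LNCaP. That of the NF-kappaB genes was -0.69 and 0.44, over the 35 members tested in the fit of all 34 libraries. Fewer members, 26, were tested in the fit of the line, where the median was -0.47. Over all genes the medians were -0.03 and -0.01. KLK3 differed by -3.48 ± 0.74 (adjusted p 0.0300), since it was above plastic in LNCaP at 1560 and 1777 CPM on ACP and 135 and 124 CPM on plastic. No fold is given for HPSE2 in LNCaP, which had 0 to 10 reads of it per library.

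**Figure D5:**
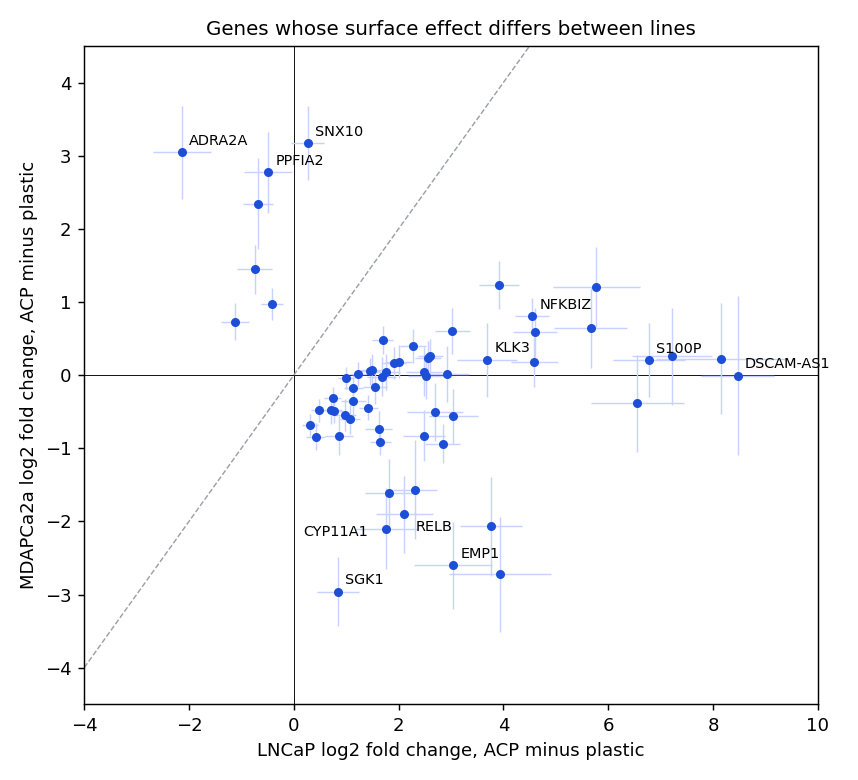
Log2 fold change of ACP minus plastic in LNCaP (x axis) and MDAPCa2a (y axis) for the 62 genes whose effects differed, with bars of 1 standard error and a dashed line of equal effects. Of the 62, 55 lie below the dashed line, and SGK1, EMP1, RELB and CYP11A1 are below 0 in MDAPCa2a and above 0 in LNCaP.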

How the data were processed

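RNA was sequenced from MDAPCa2a cells on ACP and plastic. The deposited values are whole-number read counts for each gene symbol in 1 table, which the authors did not normalize. STAR, HTSeq and hg19 are named in the submitters' processing notes, without versions or roles, and poly(A) selection is given per the labels' protocols. Whether strand was used is not given in the sources used here. Columns were matched to samples by name.

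Genes were tested with edgeR 4.0.16 in R 4.3.3 (TMM, filterByExpr at a minimum count of 10, legacy quasi-likelihood F test, Benjamini-Hochberg). The fit held the 8 MDAPCa2a libraries (4 groups, 4 residual degrees of freedom), and the difference from LNCaP used all 34 libraries (17 residual degrees of freedom). The standard error is the log2 fold change divided by the root of F. CPM use TMM sizes of the fit named. The named genes were those past the threshold, KLK3, KLK2, TMPRSS2, FKBP5, HPSE2 and HPSE, the largest difference each way in each list, and the 10 largest each way among genes with an unadjusted p below 0.05, a mean of 5 CPM or more in the group with the higher level, and libraries that did not overlap. For the difference between lines, the 3 largest each way past the threshold with at least 5 CPM in the highest group were named. Some genes are not reported here, were passed over for the next in order, and still count in the totals. The comparison, lists and rules were chosen with earlier results of these data known. Lists of NF-kappaB, glucocorticoid, steroid and Wnt genes were added after values of some members were seen, and some list members were named after their values were seen.

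Alternatives were RLE size factors, no count filter, DESeq2 1.42.0, a replicate block, fits of 4, 6 or all 34 libraries, an absolute log2 change of at least 1, and leaving out each library. Added after seeing the data were thinning to the shallowest library and the block in a fit of 4 libraries. The scripts were tested on simulated counts. Promoter sequences are from RefSeq (GRCh38.p14) and were matched by symbol.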

Additional observations from a re-analysis of the deposited data

Results flagged for a closer look

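The effect of ACP against plastic in stripped serum differed between MDAPCa2a and LNCaP for 62 genes by the edgeR test of the difference itself. In that difference the line and the coating of the plastic cannot be told apart. ADRA2A (a log2 difference of 5.18), PPFIA2 (3.26) and ARHGEF40 (3.02) had the largest positive differences, MDAPCa2a minus LNCaP. DSCAM-AS1 (-8.48), GAPLINC (-6.96) and C8orf4 (-6.94) had the largest negative ones. C8orf4 had 281 and 171 reads on plastic and 126 and 77 on ACP in MDAPCa2a, against 15 and 4 on plastic and 777 and 1001 on ACP in LNCaP. For GAPLINC, with 2 and 0 reads in the LNCaP plastic libraries, the fitted value depends on the prior count and is no bound.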

How the results depend on the processing

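The count of 1 gene stayed 1 with RLE size factors, after thinning, with a required absolute log2 change of 1 and in the fit of the 4 libraries. It was 320 without the count filter, 213 with DESeq2, 27 in the fit of all 34 libraries and 0 in the fit of 6, where 1436 genes had an unadjusted p below 0.05. Leaving out 1 library gave 0 to 303. The cause was not tested. For the difference between lines, the count was 184 without the filter and 212 with DESeq2, and 26 to 73 without 1 library. Without 1 library, log2 fold changes ran from -0.16 to 0.63 for KLK3, -0.22 to 0.24 for KLK2, -0.32 to 0.31 for TMPRSS2 and -1.12 to 0.056 for HPSE. KLK3 reversed to -0.16 without ACP replicate 1, KLK2 to -0.044 in the fit of all 34 libraries and -0.22 without ACP replicate 1, TMPRSS2 to -0.047, -0.14 and -0.32 in the fit of all 34 libraries, without plastic replicate 1 and without ACP replicate 1, and HPSE to 0.056 without ACP replicate 1. Over named genes, 566 settings kept direction and side of the threshold, 82 passed it, 3 lost it and 7 reversed.

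The replicate numbers are not stated to pair the samples, and the deviations of same-numbered libraries correlated at -0.41. With the replicate block the count was 1, and 65 for the difference between lines. In the fit of 4 libraries the block gave 19 genes, and crossed numbers gave 656. Depth of 15.4 M reads on ACP limits genes with few reads, such as HPSE.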

Other observations

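HLA-DRA, which encodes the alpha chain of an MHC class II molecule, had 60492 and 54529 reads on plastic and 56722 and 38201 on ACP. Over all 34 libraries it ran from 1435 to 3607 CPM in the 8 MDAPCa2a libraries and from 1.81 to 7.84 CPM in the 26 others. CD74 and CIITA, which usually accompany it, were nearly unread in the 4 compared libraries. CD74, the invariant chain, had 0 and 0 reads on plastic and 0 and 2 on ACP, and CIITA, the class II transactivator, had 0 in all 4. HLA-DRB1, a beta chain that pairs with it, was read at 13.95 and 12.26 CPM on plastic and 6.996 and 10.99 CPM on ACP.

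SNX10, a sorting nexin outside the rule for named genes, was chosen after its values were seen. It was at 0.226 and 0.202 CPM on plastic (7 and 5 reads) and 2.33 and 1.89 CPM on ACP (34 and 32 reads), with an adjusted p of 0.00548 in the edgeR fit of all 34 libraries and 0.0840 in the fit of the line. Its effect also differed from that in LNCaP (2.91 ± 0.60, edgeR adjusted p 0.0225), where it was at 6.82 and 15.4 CPM on plastic and 12.2 and 14.2 CPM on ACP.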
